A study of Rattus norvegicus with 22 samples.

Results

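The genes described here encode the killing machinery of cytotoxic lymphocytes. The 10 considered were the granzymes Gzma, Gzmb and Gzmk, the pore former Prf1, the granule and surface proteins Nkg7 and Klrd1, the effector molecules Ifng and Faslg, and the transcription factors Eomes and Tbx21. Each was looked up by its symbol in the gene name column of the array files, among the non-control probes, and the brightest probe over all 22 arrays stood for a gene with several. Of the 10 genes, 9 were found among the 19167 symbols on the array. Eomes was not found by its symbol.

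RNA had been measured on 22 one-color arrays of tongue tissue from 11 male F344 rats, with 1 OSCC (oral squamous cell carcinoma) and 1 piece of phenotypically normal tongue from each animal. Under the study's protocol all rats had drunk water with 4-NQO (4-nitroquinoline-1-oxide, a carcinogen) at 20 ppm for 10 weeks. Tissues were taken 23 to 26 weeks after the first exposure, at an age of about 33 weeks, and the comparison is therefore between 2 tissues of exposed rats. The sample titles carry the word untreated for every array and the normal pieces are labelled with no treatment, which does not match that protocol. Each tumor was a bulk piece of tissue in which tumor cells, stroma and infiltrating cells were not separated.

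Cytotoxic CD8 T cells and natural killer (NK) cells kill by releasing granules. Perforin, the product of Prf1, opens the membrane of the target cell, and granzymes are serine proteases that enter through it and set off cell death. The same cells can kill through Fas ligand (Faslg) and secrete interferon gamma (Ifng). The T-box factors T-bet (Tbx21) and Eomesodermin (Eomes) drive this program, while Klrd1 (CD94) is a subunit of an inhibitory or activating receptor on NK cells and some T cells. In tumors these transcripts are commonly read as a sign of armed lymphocytes.

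No member was called higher or lower in OSCC. A probe was called when limma gave a Benjamini-Hochberg adjusted p below 0.05 over all 30367 probes and the difference was at least 2-fold. Over all probes 6.86% were called higher and 6.97% lower, so that 0 of 9 was a count close to the background. One member, Tbx21, had an unadjusted p below 0.05, and its difference was under 2-fold. The paired t-test of the methods called no member either, with or without adjustment. No member was higher in OSCC in all 11 pairs, which held for 4.62% of all probes, and none had every OSCC array above every normal array, which held for 0.667%.

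Levels are given as the log2 of the processed signal relative to the 75th percentile of its array, so that 0 is the level of that percentile. Differences are OSCC minus normal on the same log2 scale, and the median difference over all probes was -0.24. Most members were dim. Prf1 and Tbx21 were well above background on all 22 arrays and Nkg7 on 21 of 22, Gzmb on 10, Gzmk on 8, Gzma on 3, Faslg on 2, Klrd1 on 1 and Ifng on none. A dim probe reads mostly background, so a difference in its gene may be understated. A reading at background also falls as the array's 75th percentile rises, whatever the gene does. That percentile was 236.8 to 654.9 in normal and 338.7 to 1414 in OSCC arrays, so a dim probe can appear to fall in OSCC. In bulk tissue, fewer cells of a type and less RNA per cell cannot be told apart.

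Perforin was the best measured of the granule proteins. The Prf1 level was -3.56 at the lowest, -2.85 at the median and -1.76 at the highest in normal tissue. In OSCC it was -3.34, -2.14 and 0.00. The OSCC piece was the higher one in 9 of 11 rats, with the exceptions of animals 17 and 22, and the groups overlapped because only 2 OSCC arrays exceeded the highest normal array. The mean was -2.67 ± 0.55 (SD, n = 11) in normal tissue and -2.02 ± 0.89 in OSCC, a difference of 0.65 (SE 0.32) or 1.57-fold that did not pass the test (limma, adjusted p = 0.108). Without animal 17 the difference was 0.86 (adjusted p = 0.028) and without animal 22 it was 0.85 (adjusted p = 0.0318), which passed the p threshold but stayed under 2-fold. Both are rats with the lower level in OSCC. Without animal 21, which had the largest rise, the difference was 0.48 (adjusted p = 0.202). Leaving out any other single rat did not pass either. The 60-base Prf1 probe lies at chr20:28663319-28663378 of the rat build rn4. It is shown with the Gzma and Gzmb probes, since what an array reads of a gene is the sequence of its probe, all in lower case because no base is singled out.
Prf1: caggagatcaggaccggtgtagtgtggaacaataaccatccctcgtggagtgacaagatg
Gzma: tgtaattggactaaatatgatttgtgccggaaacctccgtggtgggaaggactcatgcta
Gzmb: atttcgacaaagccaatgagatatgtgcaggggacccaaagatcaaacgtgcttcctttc

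Of the granzymes, Gzma cleaves at basic residues and was the most uniform in normal tissue. Its level ran from -5.37 over a median of -5.03 to -4.44 in normal tissue and from -5.82 over -5.19 to -2.28 in OSCC. One OSCC array, that of animal 21, lay far above the rest, and 9 of 11 rats had the lower level in OSCC. The difference was -0.10 (SE 0.28, adjusted p = 0.787), and without animal 21 it was -0.38 (SE 0.13, adjusted p = 0.0343, under 2-fold). The Gzma probe (chr2:44490165-44490224) stood well above background on the OSCC arrays of animals 4, 21 and 25 and on no normal array. Lower levels in the other OSCC pieces were therefore read near background.

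Gzmb, the caspase-activating granzyme of armed CD8 T and NK cells, gave 2 different answers on its 2 probes. The brightest probe (chr15:35196479-35196538) ran from -5.58 over -3.99 to -3.08 in normal tissue and from -5.76 over -3.85 to -2.13 in OSCC. It was higher in OSCC in 7 of 11 rats and lower in animals 4, 17, 22 and 24, and the OSCC arrays spread on both sides of the normal ones. Its difference was 0.21 (SE 0.40, adjusted p = 0.677). The other probe (chr15:35195450-35195509) ran from -6.21 over -5.28 to -3.74 in normal tissue and from -4.95 over -4.19 to -2.53 in OSCC, and was higher in OSCC in 10 of 11 rats. Its difference was 1.15 (SE 0.29, adjusted p = 0.00834) or 2.22-fold, which met both thresholds. It passed the background test on 1 normal and 7 OSCC arrays, against 3 and 7 for the brightest probe. Both probes are paired with the same Gzmb transcript in the files, and the list of the brightest one holds a further Ensembl transcript.

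**Figure D1:**
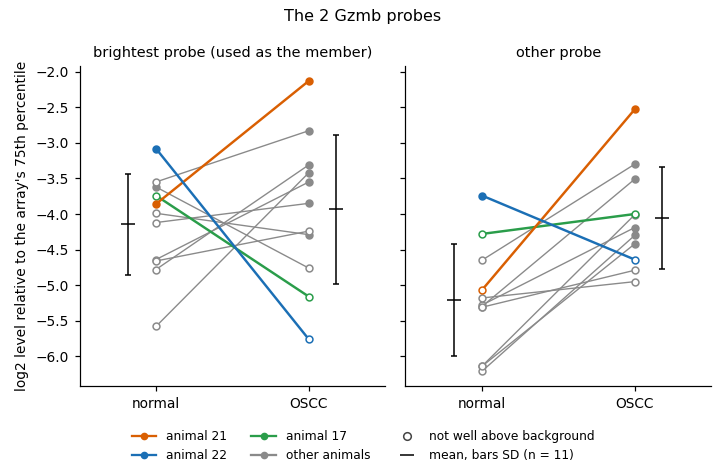
Log2 level of the 2 Gzmb probes relative to the array's 75th percentile in normal tongue and OSCC, with a line for each rat, open points where the probe was not well above background and bars for the mean and SD of 11 arrays. The brightest probe (mean difference 0.21) was lower in OSCC in animals 4, 17, 22 and 24, and the other probe (mean difference 1.15) was higher in every rat but animal 22.

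Gzmk marks memory and tissue CD8 T cells. Its level ran from -5.41 over -4.27 to -1.98 in normal tissue and from -5.98 over -4.46 to -0.64 in OSCC. Animal 22 held the highest normal and animal 21 the highest OSCC array, and 5 of 11 rats were higher in OSCC. The difference was -0.17 (SE 0.41, adjusted p = 0.744). The Gzmk probe lies at chr2:44589378-44589437, on the same chromosome as Gzma. Since Eomes and Tbx21 bind T-box sites, the 250 bases upstream of the members' starts (RefSeq, GRCr8) were searched for the half-site GGTGTGA and its reverse TCACACC. Entries were present for 9 of the 10 members, and 1 of the 9 held a match, against 3.22% of 33469 rat promoters of the same length. The match was in Gzmk (minus strand, chr2:46582016-46582265), starting at -118 and shown in capitals.
Gzmk promoter: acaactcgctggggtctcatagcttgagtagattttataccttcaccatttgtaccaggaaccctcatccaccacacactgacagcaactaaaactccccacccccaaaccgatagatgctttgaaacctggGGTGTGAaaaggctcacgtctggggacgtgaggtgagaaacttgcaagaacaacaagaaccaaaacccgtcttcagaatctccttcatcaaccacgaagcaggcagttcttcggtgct

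Nkg7, a granule membrane protein of NK and cytotoxic T cells, was well detected and did not move in 1 direction. Its level ran from -3.01 over -2.33 to -1.18 in normal tissue and from -3.97 over -2.34 to 0.04 in OSCC. The medians of the tissues nearly coincided, and 5 of 11 rats were higher in OSCC. The difference was -0.08 (SE 0.28, adjusted p = 0.83) with a mean of -2.27 ± 0.51 (SD, n = 11) for the normal pieces and -2.35 ± 0.97 for the tumors. The spread among OSCC arrays was wider than among normal arrays for each of the 9 members on its brightest probe. The other Gzmb probe had an SD of 0.78 in normal tissue and 0.71 in OSCC. The share of all probes with a wider spread in OSCC was not computed, so this is not read as a trait of the members.

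Klrd1, Ifng and Faslg were read at or near background. Klrd1 ran from -5.82 over -5.13 to -4.20 in normal tissue and from -6.60 over -6.09 to -4.10 in OSCC, and 7 of 11 rats were lower in OSCC (difference -0.64, SE 0.30, adjusted p = 0.0926). Ifng ran from -6.40 over -5.86 to -5.07 and from -7.43 over -6.35 to -4.85, not well above background on any array, with a difference of -0.42 (SE 0.22, adjusted p = 0.133). Faslg ran from -6.09 over -5.79 to -5.18 and from -6.56 over -5.41 to -4.39, with 7 of 11 rats higher in OSCC (difference 0.32, SE 0.23, adjusted p = 0.261). No fold is given for these genes. Without animal 21 the Ifng difference was -0.59 (adjusted p = 0.0197), and without animal 9 the Klrd1 difference was -0.82 (adjusted p = 0.0432), both under 2-fold. The Ifng probe was well above background on no array and the Klrd1 probe on 1, so neither value is read as a fall of the transcript. The lowest Ifng level was in the OSCC of animal 4, the array with the highest 75th percentile, 1414. With quantile normalization the Ifng difference was 0.05 and that of Klrd1 -0.58.

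Eomes had no probe under its symbol. A probe described as Eomesodermin in the files (chr8:123383362-123383421), found by its description and outside the rule, was not well above background on any of the 22 arrays. Its difference was -0.63 (SE 0.22, limma, adjusted p = 0.0351), under 2-fold, and is not read as a fall of the transcript. Its lowest levels were -7.92 and -7.62, on the OSCC arrays of animals 4 and 25. Those arrays had the highest 75th percentiles, 1414 and 1063, by which the signal is divided. The part of this scaling in the difference was not tested.

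**Figure D2:**
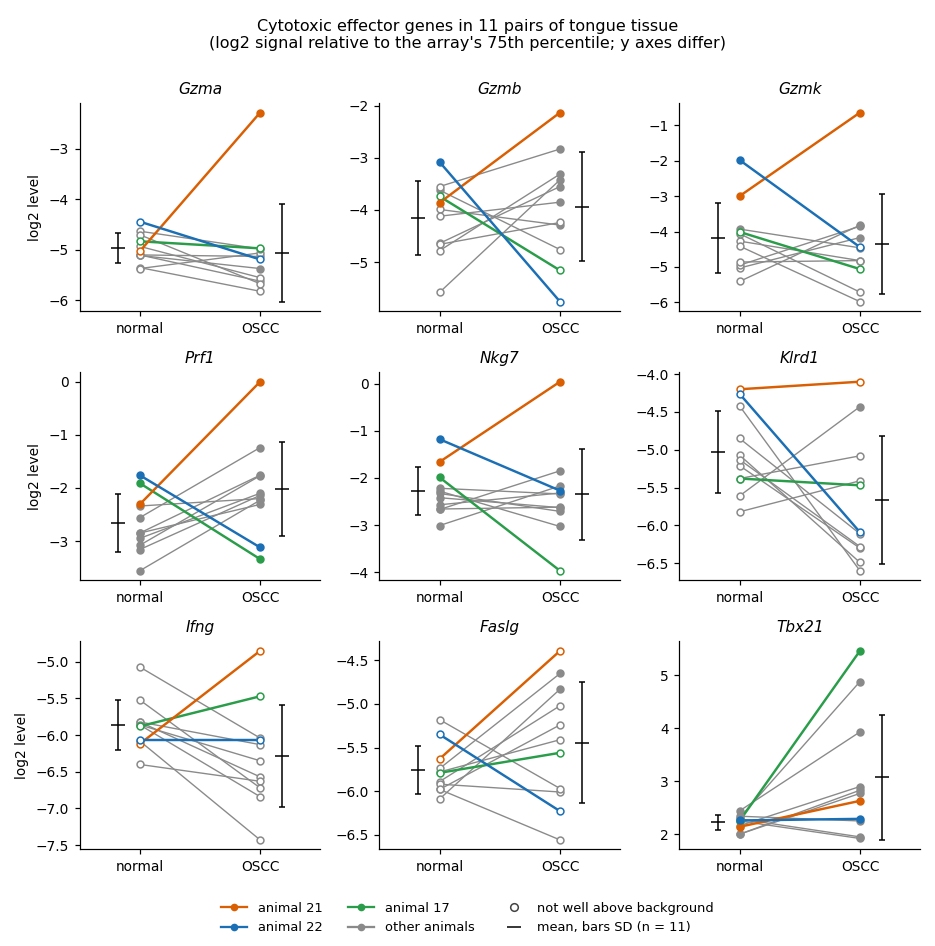
Log2 level relative to the array's 75th percentile of 9 cytotoxic effector genes in normal tongue and OSCC, with a line for each of the 11 rats, open points where the probe was not well above background and bars for the mean and SD. Animal 21 held the highest OSCC array for every gene except Tbx21, for which animal 17 was highest at 5.46.

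Tbx21 stood apart from the other members in its level and its pattern. Its level ran only from 2.0 over 2.25 to 2.44 in normal tissue, with an SD of 0.14, and from 1.92 over 2.77 to 5.46 in OSCC. The OSCC arrays of animals 17 (5.46), 9 (4.88) and 16 (3.93) were the highest, and 7 of 11 OSCC arrays exceeded every normal array. The mean was 2.22 in normal tissue and 3.07 in OSCC, a difference of 0.85 (SE 0.32) or 1.81-fold with an adjusted p of 0.0472, and 8 of 11 rats were higher in OSCC. The adjusted p was 0.0726 without animal 17, 0.104 without animal 9 and 0.0869 without animal 16, with differences of 0.62, 0.68 and 0.79. By limma it was also above 0.05 without animal 4 (0.0763), 13 (0.0771), 21 (0.0521), 24 (0.0548) or 26 (0.054). It stayed below 0.05 without animal 11 (0.0467), 22 (0.0417) or 25 (0.0463). The probe lies at chr10:85818220-85818279 and is paired with a Tbx21 transcript in the files. Its sequence was not matched to current transcripts here, so the values are those of the probe under that name.

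The 3 OSCC arrays with the most Tbx21 signal also carried much salivary gland transcript. The 8 salivary gland markers listed (Bpifa1, Bpifb1, Lipf, Amy1a, Vegp1, Vegp2, Aqp5 and Bhlha15) were all called higher in OSCC, and their summed level, in multiples of the array's 75th percentile, was 0.231 to 2.88 in normal tissue and 2.72 to 5940 in OSCC. It was 5940 in animal 17, 2290 in animal 9 and 3240 in animal 16. In animals 25, 26 and 22, where it was 3.35, 2.72 and 6.56, Tbx21 was at 1.92, 2.25 and 2.29, within or just below the range of normal tissue. Animal 24 had a sum of 3290 with Tbx21 at 2.77, and animal 4 a sum of 1290 with Tbx21 at 2.90. Animals 11, 21 and 13 had sums of 141, 80.9 and 63.3 with Tbx21 at 1.95, 2.63 and 2.83, so the order of the 2 measures was not the same. The part of gland tissue in the Tbx21 difference was not tested.

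**Figure D3:**
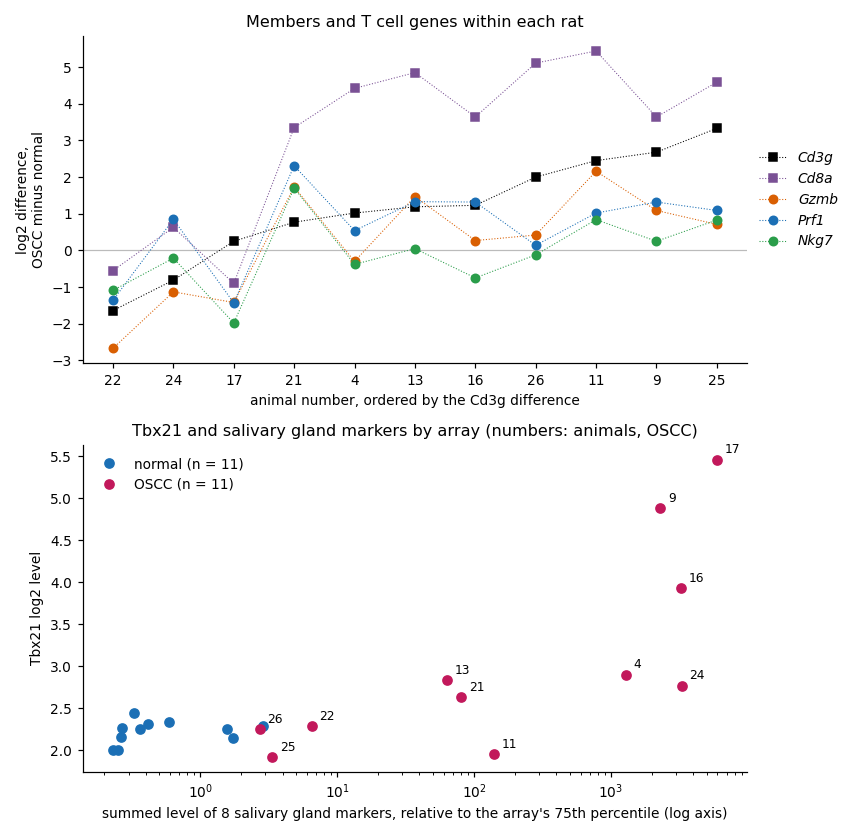
Above, the log2 difference (OSCC minus normal) of Gzmb, Prf1 and Nkg7 (circles) and the T cell genes Cd3g and Cd8a (squares) in each of 11 rats, ordered by Cd3g, and below, the Tbx21 log2 level of each array against its summed salivary gland markers on a log axis. Cd8a lay above Gzmb and Nkg7 in all 11 rats, and Tbx21 was highest in animals 17, 9 and 16, whose sums were 5940, 2290 and 3240.

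The members' differences varied widely from rat to rat. Over the 4 members well above background on at least 6 OSCC arrays (Gzmb, Prf1, Nkg7 and Tbx21), the mean difference was 1.56 in animal 21, 1.31 in animal 9, 0.92 in animals 11 and 13, 0.58 in animals 16 and 25, 0.15 in animal 4, 0.09 in animal 26, 0.07 in animal 24, -0.40 in animal 17 and -1.27 in animal 22. These are a description, since the 4 were chosen by their OSCC signal. The mean also joins members that moved apart. In animal 17 the difference was 3.21 for Tbx21 but -1.42 for Gzmb, -1.43 for Prf1 and -1.98 for Nkg7. Animal 21 was the only rat with all 9 members higher in OSCC, by 2.75 for Gzma, 2.37 for Gzmk, 2.31 for Prf1, 1.73 for Gzmb and 1.70 for Nkg7. Its OSCC array was the highest of the 11 for 8 members. Animal 22 was the opposite, with a normal piece that was the highest of the 11 for Gzma, Gzmb, Gzmk, Prf1 and Nkg7, and with differences of -2.67 for Gzmb and -2.46 for Gzmk.

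Markers of other cell types also stood out in these 2 rats. The summed level of 17 T cell genes was 5.54 in the normal piece of animal 22, the highest of the normal pieces (range 1.76 to 5.54), and 2.51 in its OSCC. It was 9.51 in the OSCC of animal 21, second to 10.6 in animal 25 (OSCC range 2.24 to 10.6). The OSCC of animal 21 also had the highest skeletal muscle sum of the tumors, at 2560. That of animal 24 had 2360 and that of animal 22 had 2010, against 72.1 to 838 in the others, so a high muscle sum was shared by animals 21 and 22. The mast cell sum was lowest in the OSCC of animal 21, at 0.981 in a range up to 19.7. Of the 8 muscle markers 5 were called lower and 1 higher in OSCC, and of the 8 mast cell markers 4 were called lower. The part of these cell types in the members' values was not tested.

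**Figure D4:**
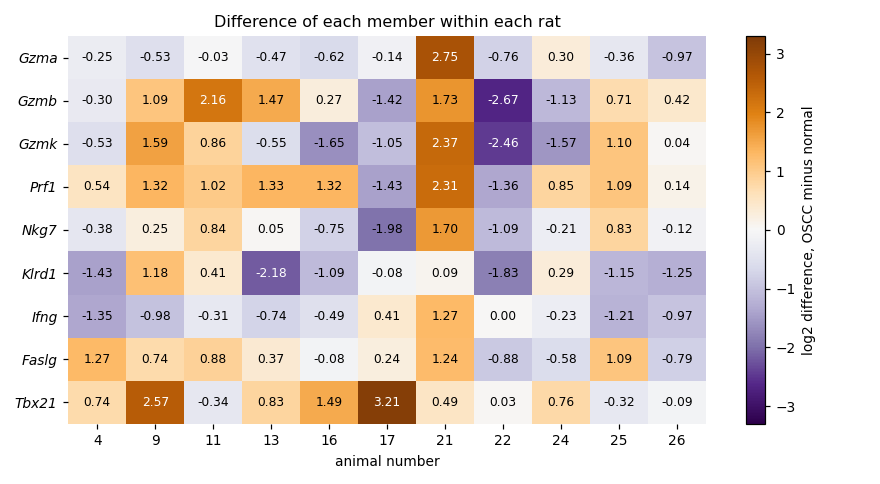
Log2 difference (OSCC minus normal) of each of 9 members in each of 11 rats, as a color and a number. The column of animal 21 is above 0 for every member, and that of animal 22 holds the 2 lowest values, -2.67 for Gzmb and -2.46 for Gzmk.

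The differences of Gzmb, Prf1 and Nkg7 were correlated over all 11 rats, with a few rats far from the others. Over the 11 differences, Pearson's r was 0.82 between Gzmb and Prf1 (Spearman's rho 0.75), 0.79 between Gzmb and Nkg7 (rho 0.91) and 0.83 between Prf1 and Nkg7 (rho 0.69). The values for Gzmb are a description, since its probe was well above background on 7 OSCC and 3 normal arrays. For Prf1 and Nkg7 a permutation test, adjusted over 6 relations, gave p of 0.0084 for r and 0.0468 for rho. Without animals 17 and 22, the 2 rats farthest from the median of Gzmb and of Prf1, r was 0.52, 0.67 and 0.62. Animal 21 stayed in, with the highest differences of Prf1 (2.31) and Nkg7 (1.70), and for Nkg7 the 2 farthest were animals 17 and 21. Leaving out all of 17, 21 and 22 was not tested. Among the other rats Prf1 and Nkg7 could part, as in animal 16 (1.32 and -0.75). For Tbx21, r was -0.20 to Gzmb, -0.21 to Prf1 and -0.53 to Nkg7, with rho of -0.32, 0.07 and -0.49. The permutation test did not pass against Prf1 (adjusted p = 0.54 for r and 0.843 for rho) or Nkg7 (0.14 and 0.194). The differences share arrays, scaling and the makeup of each piece.

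T cell genes were called higher while no cytotoxic member was. Of 17 T cell identity genes 9 were called higher and none lower, against 6.86% and 6.97% of all probes. Their median difference was 1.07, against -0.08 over the 9 members and -0.24 over all probes. The 2 lists differ in detection, since 15 of the 17 T cell genes but 4 of the 9 members were well above background on at least 6 OSCC arrays. Those 4 members, Gzmb, Prf1, Nkg7 and Tbx21, had differences of 0.21, 0.65, -0.08 and 0.85. Tbx21 is counted here as the probe under that name. Its normal mean of 2.22 exceeded that of Cd3d (-1.57), the highest of the T cell genes. The T cell genes with the smallest adjusted p included Cd8a, the CD8 alpha chain (3.11, SE 0.62, adjusted p = 0.00256), and the kinase Lck (1.49, adjusted p = 0.0141). Cd8b, the partner chain of Cd8a, was among them too (1.85, adjusted p = 0.00765, at least 1.13-fold since no normal array was well above background). The CD3 subunit Cd3g was also called (1.13, adjusted p = 0.0401). The count of 9 was 5 without animal 9, 4 without animal 11 and 3 without animal 25. It was 5 with quantile normalization or the array median, 1 with normexp background correction and 0 with scan day as a term, so the count depends on the processing.

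The members' differences within rats are set beside those of Cd3g and Cd8a as a description, since both T cell genes were singled out after their values were seen. The difference of Cd3g exceeded that of Gzmb in 9 of 11 rats, of Nkg7 in 8, of Tbx21 in 7 and of Prf1 in 6. The difference of Cd8a, the highest of the 17, exceeded that of Gzmb and Nkg7 in 11 of 11 rats, of Prf1 in 10 and of Tbx21 in 8. Cd8a passed the background test on 3 normal and 10 OSCC arrays. The T cell genes with the lowest differences lay within the range of the members, at -0.05 for Cd5, 0.20 for Cd7, 0.23 for Cd27 and 0.31 for Cd28 and Lat, none of them called. The Gzmb values are those of its brightest probe, and its other probe rose by 1.15, close to Cd3g.

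Within the granule and death receptor machinery, the genes called were mostly those that process or inhibit the killing proteins or act in the target cell. The list had 20 genes with a probe, of which 8 were called higher and none lower (median 0.82), against 6.86% and 6.97% of all probes. The initiator caspase Casp8 rose by 1.34 (SE 0.16, adjusted p = 0.00021), Ctsc, which activates granzyme precursors, by 1.40 (adjusted p = 0.000401), the death receptor Fas by 1.90 (adjusted p = 0.000704) and Cst7, a cystatin that inhibits granule cathepsins, by 1.92 (adjusted p = 0.000906). The granzyme B inhibitor Serpinb9, the granzyme B substrate Bid and the granule proteoglycan Srgn were also called, with differences of 2.13, 1.19 and 1.65. The further granzymes Gzmc (0.25, adjusted p = 0.424), Gzmf (0.55, adjusted p = 0.18) and Gzmm (-0.67, adjusted p = 0.104) did not pass, nor did the cathepsin Ctsw (-0.02, adjusted p = 0.954). Many of these genes are expressed outside lymphocytes.

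Of 24 NK receptors and adaptors 5 were called higher and none lower (median 0.28), against 6.86% and 6.97% of all probes. Cd244 rose by 2.29 (at least 1.94-fold, adjusted p = 0.00167), the Fc receptor Fcgr3a by 2.60 (adjusted p = 0.00479), the adaptor Tyrobp by 1.51 (adjusted p = 0.00647) and Klrc3 by 1.45. Klrb1b was called higher too (adjusted p = 0.00331), on a probe with no normal array well above background, and no fold is given. Fcgr3a and Tyrobp are also expressed by macrophages, of whose 7 markers 5 were called higher in OSCC, with a summed level of 1.21 to 3.42 in normal tissue and 2.25 to 10.4 in OSCC. Klrc1 and Klrc2, partner chains of Klrd1, had differences of 0.24 (adjusted p = 0.38) and 0.12 (adjusted p = 0.659) and were well above background on 1 OSCC array each. The part of macrophages in these changes was not tested.

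Type 1 cytokines, receptors and regulators had 17 genes with a probe, 3 called higher and 1 lower (median 0.37). Over all probes the shares were 6.86% and 6.97%, and so small a count is not read as a result about the pathway. Stat4, which carries the interleukin 12 signal, was called higher (adjusted p = 0.00291), but no normal array was well above background and no fold is given. The receptor Il21r rose by 1.85 (adjusted p = 0.00588) and the transcription factor Prdm1 by 1.12 (adjusted p = 0.00872). Il15, a cytokine that sustains NK and memory CD8 T cells, fell by 1.23 on the log2 scale (SE 0.25, adjusted p = 0.00308) and was lower in 9 of 11 rats. Of the 8 skeletal muscle markers 5 were called lower and 1 higher, and the part of muscle in the Il15 fall was not tested.

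Of 20 interferon gamma receptors and targets 3 were called higher and none lower (median 0.52), against 6.86% and 6.97% of all probes. Among the 18572 probes well above background on at least 6 arrays, 1966 were called higher. A count of 3 in 20 is not read as a result about the pathway. Cd274, the checkpoint ligand PD-L1, rose by 1.92 (SE 0.27, adjusted p = 0.000454) in 10 of 11 rats. Jak2, Jak1 and Ifngr2 passed the adjusted p under 2-fold, with differences of 0.94, 0.51 and 0.53 (adjusted p = 0.000891, 0.0046 and 0.00846). Socs1 and Irf8 were the other 2 called, at 1.22 and 1.54. The chemokines that interferon gamma induces did not pass, with Cxcl9 at -0.03 (adjusted p = 0.932), Cxcl10 at 0.26 (adjusted p = 0.675) and Cxcl11 at 0.89 (adjusted p = 0.244), and for each of the 3 the highest OSCC array was that of animal 21 and the highest normal array that of animal 22.

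**Figure D5:**
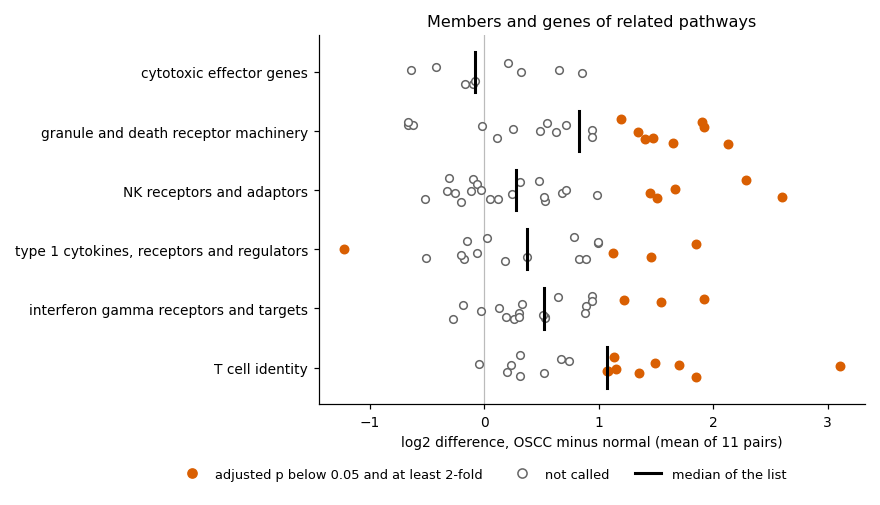
Log2 difference (OSCC minus normal, mean of 11 pairs) of the 9 members and of the genes of 5 related lists, filled where called and with a bar at the median of each list. The members spread around 0 with none called, and the T cell list has 9 of 17 genes called and a median of 1.07. Of the members 4 of 9 were well above background on at least 6 OSCC arrays, and of the T cell genes 15 of 17.

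Over 12264 symbols well above background on at least 6 OSCC arrays, the 8 whose differences followed the mean of Gzmb, Prf1, Nkg7 and Tbx21 most closely over the 11 rats were the granzyme Gzmc (Pearson's r 0.93), Gpr31 (0.91), Parp9 (0.87), Dtx3l (0.86), Tifab (0.86), Dner (0.85), Cd22 (0.85) and Usp18 (0.84). These are the highest of many correlations and are a description, and the mean joins Tbx21 with members that it did not follow.

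The scan day and slide followed the tissue. All normal arrays were on 3 slides scanned on 1 day, and the OSCC arrays were on 4 other slides, with those of animals 4 and 9 scanned on the same day as the normal arrays and the other 9 on another. Slide and tissue cannot be told apart. Within that day, the differences of animals 4 and 9 were 0.54 and 1.32 for Prf1, -0.30 and 1.09 for Gzmb, -0.38 and 0.25 for Nkg7 and 0.74 and 2.57 for Tbx21. Over the 9 pairs scanned on different days, Tbx21 differed by 0.67 (limma, adjusted p = 0.167) and Prf1 by 0.59, and no member was called. With scan day as a term, where the tissue difference rests on animals 4 and 9, the differences were 1.65 for Tbx21 (adjusted p = 0.132), 0.93 for Prf1, 1.01 for Faslg, -1.17 for Ifng and 0.53 for Gzmk, and no member was called.

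The 75th percentile of the processed signal was 236.8 to 654.9 in normal arrays and 338.7 to 1414 in OSCC arrays, and 48.4% to 56.1% and 52.3% to 65.5% of probes were well above background. Animal 17 had the lowest OSCC values of both, 338.7 and 52.3%, and animal 21 had 394.6 and 53.7%. All 8 muscle and all 7 squamous markers on the array were well above background on at least 6 OSCC arrays. This shows tongue tissue but does not test the OSCC label, since the normal pieces carried both kinds of marker. The muscle sum was 1070 to 2290 in normal tissue. In OSCC it was 2560, 2360 and 2010 in animals 21, 24 and 22, within or above that range, and below it in the others. The paper names animals 21, 22 and 24 as examples of variable expression in normal tissue and OSCC. The squamous sum was 444 to 946 in normal tissue and 241 to 999 in OSCC.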

How the data were processed

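Values came from 22 one-color arrays. The authors used Agilent Feature Extraction (9.5.3.1), and the deposited intensity of each spot was background-subtracted and detrended. The deposited series table holds the signal as a ratio to the array's 75th percentile. Of its values at or above 0.5, 99.97% were within 2% of the ratio computed here. Most values of the members other than Tbx21 were lower and were not checked in this way. There the 2 sources can differ, with a Gzmk difference of -0.50 from the deposited values against -0.17 here, while Prf1 had 0.65 from both. Control spots and 9196 outlier spots were left out here, log2 signals of a probe's spots were averaged, and the 75th percentile of the array was subtracted. The model, fitted with limma (version 3.58.1, R 4.3.3), held a term for the rat beside that for the tissue, since each rat gave both. Same-rat deviations from the tissue means correlated between -0.21 and 0.24 (median -0.02). Calls needed both an adjusted p below 0.05 and 2-fold, and low signals were kept. The fit was tested on simulated data. An at-least fold sets the bright tissue's mean against the lowest signal well above background on each dim array, or the probe's own if higher.

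The array files' flags per spot (well above background, saturated, outlier) were used as deposited. The number of arrays limits the precision. Coordinates are those of the files (rn4), whose exon annotation was not used here. The members and lists were chosen with earlier results of these data known. Named genes were all members, the 4 genes of each related list with the smallest adjusted p, the 8 symbols most like the members' mean, and others singled out after their values were seen. Some genes that the rule covers are not reported here. Alternatives were other scalings, background corrections, filters, batch terms, tests and left-out rats.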

Additional observations from a re-analysis of the deposited data

How the results depend on the processing

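No member was called higher or lower under any of 25 other settings. A further 2, added after seeing the data, each gave 1 member called higher: the other Gzmb probe, and no limit on the fold, which adds Tbx21. Of 231 values for single members, 222 kept their direction. The 9 that turned did not pass the test: Ifng 0.05 with quantile normalization, Nkg7 0.01 with the percentile of detected probes, Gzmb -0.10, Nkg7 0.10 and Faslg -0.05 with normexp, Gzmk 0.53 with scan day as a term, and, leaving out 1 rat, Gzmk (-0.42 to 0.06, above 0 without animal 22) and Nkg7 (-0.26 to 0.11, above 0 without animal 17 or 22).

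With no pairing by rat (no replicate block), the counts were 0 members either way and 8, 5, 4, 3 and 9 genes of the granule, NK, type 1, interferon gamma and T cell lists, and the block changed no call among these genes. Over all probes 2098 were called higher and 2129 lower without it. With normexp these counts were 4, 2, 0, 1 and 1. With scan day as a term all were 0, over 0 probes called higher and 3 lower of 30367, where the tissue difference rests on animals 4 and 9. Quantile normalization gave 7 type 1 and 5 T cell genes, the array median 5 T cell genes, the detected-probe percentile 5 interferon gamma genes and the authors' scaled values 7 type 1 genes. With slide as a random block 1 interferon gamma and 4 T cell genes were called, and over the 9 pairs scanned on different days 1 and 3. Without animals 21, 22 and 24 the NK, type 1 and interferon gamma lists had 8, 7 and 7. Leaving out 1 rat gave 0 members each time, 8 to 10 granule, 5 to 6 NK, 3 to 7 type 1, 3 to 6 interferon gamma and 3 to 9 T cell genes, with the extremes 7 and 6 without animal 22 and 3 without animal 25. The cause was not tested. The median of all probes moved from -0.24 to -0.44 with the array median and -0.03 with quantile normalization. Called probes split 2083 higher to 2118 lower, 1541 to 3154 with the array median, 2408 to 1798 with the detected-probe percentile and 686 to 1015 with normexp.

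Signal over background is a limit: 5 of 9 members were well above background on fewer than 6 OSCC arrays.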

Other observations

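By the same measure of likeness, applied to single members after their values were seen, the symbols whose differences followed Tbx21 most closely were LOC689044 (r 0.97), LOC691396 (0.95), Cpsf1 (0.95), Polm (0.95), Map2k5 (0.94), LOC690415 (0.94), Yipf2 (0.94) and Brdt (0.94). None is a member of the lymphocyte lists used here. Those that followed the mean of Prf1 and Nkg7 were Gpr31 (r 0.94), Parp9 (0.92), Tifab (0.89), MGC108823, described as similar to an interferon-inducible GTPase (0.89), Cpxm2 (0.88), Phyhd1 (0.88), Rtp4 (0.88) and Thbs4 (0.87). All are over 11 rats and are the highest of 12264 correlations.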
